A study of Mus musculus with 6 samples.

Results

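The genes described here are the mitochondrially encoded (mt) genes of activated mouse B cells, chosen as every gene in the table of normalized counts whose symbol starts with mt-. The rule found 37 of the 55421 genes in the table: 13 genes for mRNAs, 2 for rRNAs and 22 for tRNAs. RNA was sequenced from splenic B cells of 3 WT mice (genotype CD21-cre) and 3 hnRNPL-deficient mice (genotype hnRNPL F/F CD21-cre), with 1 library per mouse. Both groups carried the CD21-cre transgene, which acts mostly in peripheral B cells, and the Rosa mT/mG reporter, in which cre activity switches a cell from tdTomato to GFP. The mice were of the C57BL6/J background, male or female and older than 6 weeks. B cells were purified from spleen, cultured for 24 h with LPS at 5 µg/ml and IL-4 at 5 ng/ml, sorted as GFP+ cells, and poly(A) RNA was isolated per library. GFP marks cells in which cre was active and is not itself a measure of Hnrnpl deletion.

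Mammalian mitochondria keep a small circular genome of their own that encodes core subunits of the respiratory chain and of ATP synthase, together with the rRNAs and tRNAs needed to translate them inside the organelle. Both strands are copied into long precursors, and the mRNAs and rRNAs are freed mainly by cutting out the tRNAs that lie between them, after which most mRNAs receive a short poly(A) tail. The remaining subunits of the same complexes, and all the enzymes that copy, cut and protect mt RNA, are encoded in the nucleus.

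On the mt genome of the mm10 assembly (chrM), 28 of the 37 genes lay on the forward strand and 9 on the reverse strand. The reverse strand held the mRNA gene mt-Nd6 and 8 tRNA genes. The genes were packed end to end, and several shared bases, so the sequences at the places where the data below turn on a boundary are shown first, taken from GENCODE transcripts of the same assembly. The longest overlap, of 43 bases, joined mt-Atp8 and mt-Atp6, the mt-encoded subunits of ATP synthase. In the stretch chrM:7907-7989 on the forward strand, the bases in capitals belong to both genes.
mt-Atp8/mt-Atp6 overlap: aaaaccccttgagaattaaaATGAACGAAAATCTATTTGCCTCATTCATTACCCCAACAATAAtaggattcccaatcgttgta
The end of mt-Atp6 shared 1 base with the start of mt-Co3, which encodes a subunit of cytochrome c oxidase. In chrM:8578-8636, the capitals mark the stop codon of mt-Atp6 running into the start codon of mt-Co3.
mt-Atp6/mt-Co3 junction: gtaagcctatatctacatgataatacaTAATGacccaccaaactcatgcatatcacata
The end of mt-Nd5 overlapped the end of mt-Nd6 on the other strand by 14 bases, shown in capitals at chrM:13536-13565 (forward strand) and chrM:13552-13581 (reverse strand).
mt-Nd5 3′ end: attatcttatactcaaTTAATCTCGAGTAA
mt-Nd6 3′ end: tttattattatcgagaTTACTCGAGATTAA
Of the 13 mRNA genes, 10 ended in a whole stop codon. The other 3 (mt-Co3, mt-Nd4 and mt-Cytb) ended in a single T, in capitals in their last 30 bases at chrM:9361-9390, chrM:11515-11544 and chrM:15259-15288, so that the stop codon is whole only once the poly(A) tail is added.
mt-Co3 3′ end: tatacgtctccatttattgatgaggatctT
mt-Nd4 3′ end: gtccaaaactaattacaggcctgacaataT
mt-Cytb 3′ end: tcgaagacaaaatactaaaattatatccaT

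The libraries held 40395186 to 75180749 reads on genes, the shallowest being hnRNPL-deficient 3 and the deepest WT 3. Hnrnpl itself was at 24371, 25580 and 24174 normalized counts in WT and at 2178, 1519 and 1297 in hnRNPL-deficient libraries, in the direction of the labels. All 7 B cell markers on the list were tested, with summed normalized counts of 287125 to 366766 in WT and 280251 to 331421 in hnRNPL-deficient libraries. The 8 T and NK cell markers summed to 19.7 to 27.7 in WT and 28.3 to 41.1 in hnRNPL-deficient libraries, and Ncr1 was at 0 in all 6. The 7 myeloid markers moved with genotype, summing to between 260.0 and 331 in WT and to between 1239 and 1384 in hnRNPL-deficient libraries. Nearly all of that sum was Adgre1 (F4/80), while Lyz2 stayed at or under 2.02 and S100a8 and S100a9 were at 0 in every library. The 7 erythroid and megakaryocyte markers summed to between 51.1 and 56.2 in WT and between 71.2 and 112 in hnRNPL-deficient libraries, with Pf4 at 0. Of the 3 tested, Hbb-bt (a beta globin) was at 15.1, 14.7 and 6.88 in WT and at 36.1, 56.5 and 39.7 in hnRNPL-deficient libraries (log2 fold change 1.82, adjusted p = 0.0235 by limma). Hbb-bs had a higher mean without passing (1.52, adjusted p = 0.110), and Itga2b had a lower one (-0.08). The summed 5 plasma cell markers, mostly Irf4 and Xbp1, overlapped between groups, at 33957 to 39571 in WT and 33296 to 36361 in hnRNPL-deficient libraries. Among them, Jchain, the joining chain of secreted antibodies, was lower in every hnRNPL-deficient library, at 117, 109 and 26.0 in WT and 23.4, 7.07 and 13.7 in hnRNPL-deficient libraries (log2 fold change -2.31, adjusted p = 0.0509). The part of these marker differences in the mt results was not tested.

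All together, mt RNA made up 6.77%, 5.57% and 6.17% of the reads on genes in WT 1, 2 and 3, and 7.06%, 6.11% and 8.92% in hnRNPL-deficient 1, 2 and 3. The groups overlapped, and the mean difference of 1.19 percentage points was carried largely by hnRNPL-deficient 3, the shallowest library, without which it was 0.414. The share depends on how reads shared with 10 nuclear copies of mt sequence, described further on, were counted. Those copies held 3.29%, 2.34% and 2.62% of the reads on genes in WT and 3.39%, 2.77% and 4.27% in hnRNPL-deficient libraries. Of the reads on all other genes, mt RNA made up 7.01%, 5.70% and 6.34% in WT and 7.31%, 6.29% and 9.32% in hnRNPL-deficient libraries, again overlapping. The mRNAs accounted for 99.0% to 99.7% of mt reads in every library. These are bulk samples, in which more mitochondria per cell, more mt RNA per mitochondrion and a different make-up of cells cannot be told apart.

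The fit across all genes (limma on log2 of the normalized count plus 1) tested the 17640 genes whose mean normalized count reached 10, among them 29 of the 37 mt genes: all 13 mRNAs, both rRNAs and 14 of the 22 tRNAs. At an adjusted p under 0.1, mt-Cytb and mt-Atp6 were higher in hnRNPL-deficient B cells and no mt gene was lower. That is 2 of 29 higher against 10% of all genes tested, and 0 of 29 lower against 7.97%. The same 2 mt genes were higher by at least 1.5-fold, against 7.28% of all genes at both thresholds, and 4.08% of all genes were lower at both. Within the mt genes, 3 had an unadjusted p under 0.05: these 2 and the tRNA mt-Te, which was lower. On the reads of 5 libraries, edgeR called the same 2 genes higher, DESeq2 called these and mt-Atp8, and neither called an mt gene lower. Neither share of mt genes was above that of all genes tested, so nothing particular to the class is read from these counts, and the differences are described gene by gene.

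**Figure D1:**
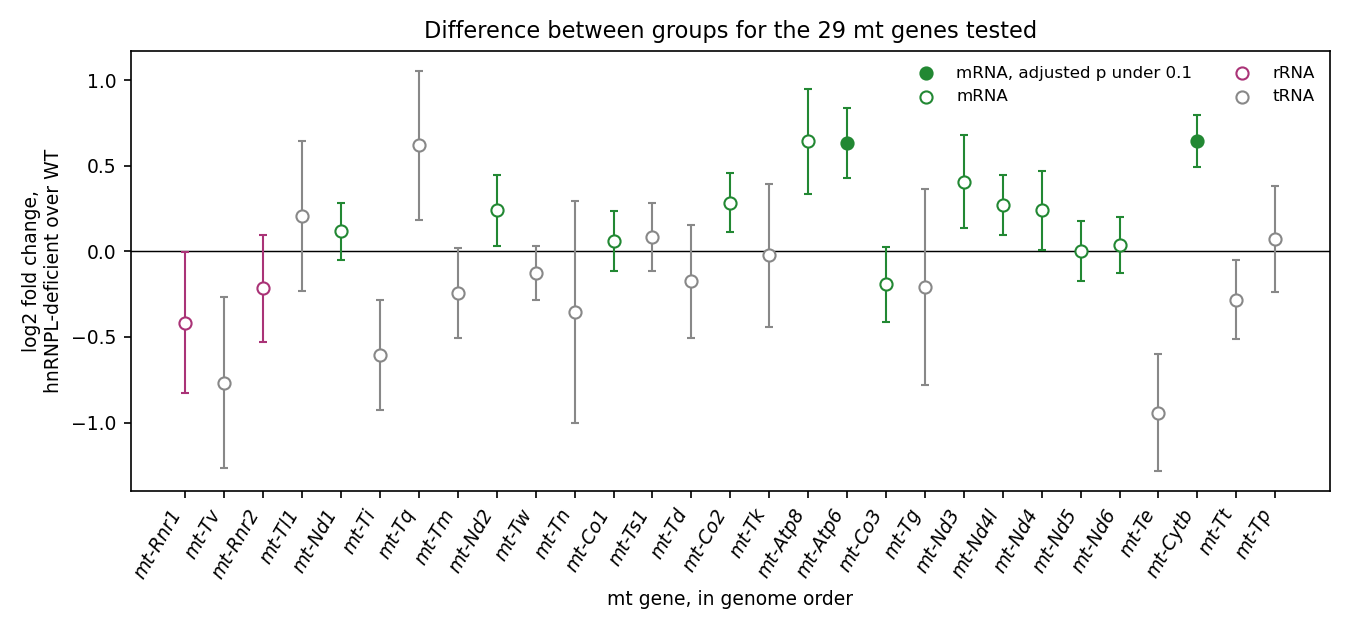
Log2 fold change (hnRNPL-deficient over WT, vertical axis) with its standard error for the 29 mt genes tested, in genome order; colour gives the RNA class and filled circles mark an adjusted p under 0.1. The filled circles are mt-Atp6 at 0.63 and mt-Cytb at 0.65, most mRNAs lie above 0 and both rRNAs and most tRNAs lie below it.

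mt-Cytb (ENSMUSG00000064370.1, chrM:14145-15288, forward strand, a gene without introns) encodes cytochrome b, the only mt-encoded subunit of complex III. Its normalized counts were 214597, 187570 and 207874 in WT and 289294, 295029 and 375775 in hnRNPL-deficient libraries. Every hnRNPL-deficient library was above every WT library, and hnRNPL-deficient 3 was the highest. The log2 fold change was 0.65 (SE 0.150), which is 1.57-fold, with an adjusted p of 0.0291 by limma. Without hnRNPL-deficient 3 the log2 fold change was 0.53 and the adjusted p 0.0468, so that the gene no longer reached 1.5-fold. Without WT 2 the adjusted p was 0.125, and without WT 3 it was 0.101, in fits with 1 library fewer. When the libraries were scaled to equal totals over the 13 mt mRNAs, an alternative chosen after seeing the data, its log2 fold change was 0.46 and its adjusted p 0.135.

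mt-Atp6 (ENSMUSG00000064357.1, chrM:7927-8607, forward strand) encodes the subunit of ATP synthase (complex V) that forms the proton channel with the c-ring. Its normalized counts were 314646, 200631 and 216820 in WT and 395457, 311068 and 415912 in hnRNPL-deficient libraries. The groups overlapped, because WT 1 was above hnRNPL-deficient 2. The log2 fold change was 0.63 (SE 0.204), with an adjusted p of 0.0827 by limma. The call was lost on leaving out WT 2 (adjusted p = 0.245), WT 3 (0.239), hnRNPL-deficient 1 (0.163) or hnRNPL-deficient 3 (0.178), and with no mean-variance trend (0.137). Scaled to equal totals over the 13 mt mRNAs, its log2 fold change was 0.44 and its adjusted p 0.149. Nearly all of its sequence is also present in a nuclear copy, whose counts are given further on.

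mt-Atp8, the other mt-encoded subunit of ATP synthase and the upstream partner of mt-Atp6 on the shared transcript, was at 48918, 22393 and 23876 in WT and at 49161, 34156 and 59380 in hnRNPL-deficient libraries. WT 1 lay among the hnRNPL-deficient libraries and about level with hnRNPL-deficient 1. Its log2 fold change of 0.64 was as large as that of mt-Atp6, but its standard error was 0.308 and its adjusted p 0.218. On the reads of 5 libraries its log2 fold change was 0.78 with both count tools, and the adjusted p was 0.161 by edgeR and 0.0848 by DESeq2, past the threshold. Without WT 1 the log2 fold change was 1.00 and the adjusted p 0.0297.

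Complex I (NADH dehydrogenase) has 7 mt-encoded subunits, and none of the 7 mRNAs passed the test, although all had a higher mean in hnRNPL-deficient B cells. In that list, limma gave no unadjusted p under 0.05. Their median log2 fold change was 0.24, from 0.00 for mt-Nd5 to 0.41 for mt-Nd3. mt-Nd3 was at 63351, 30106 and 33339 in WT and at 58866, 42159 and 59814 in hnRNPL-deficient libraries. As with mt-Atp8, WT 1 was the exception among the WT libraries, here the highest of all 6, and without it the log2 fold change of mt-Nd3 was 0.74 with an adjusted p of 0.0364, against 0.373 with all libraries. mt-Nd1, which encodes a membrane subunit near the quinone site, was at 547954, 461379 and 492465 in WT and at 560741, 463186 and 612255 in hnRNPL-deficient libraries (log2 fold change 0.12, adjusted p = 0.684). mt-Nd5, a subunit of the proton-pumping arm, was at 402577, 308645 and 364164 in WT and at 356199, 301281 and 423976 in hnRNPL-deficient libraries. The means of mt-Nd5 hardly differed between the groups (log2 fold change 0.00, SE 0.177), although the gene lies just upstream of mt-Cytb on the forward strand. mt-Nd6, alone among the mRNAs on the reverse strand, was at 1843, 2901 and 2258 in WT and at 2239, 2553 and 2284 in hnRNPL-deficient libraries. Its log2 fold change was 0.04, and it also had by far the lowest counts per kb of the mRNAs, at 4497 ± 1027 in WT (SD, n = 3). In libraries made from poly(A) RNA, these counts measure the mt-Nd6 RNA that was carried through the selection.

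Cytochrome c oxidase (complex IV) has 3 mt-encoded subunits, which form its catalytic core, and none passed the test. mt-Co1, the subunit with the haem and copper site of oxygen reduction, was at 986929, 934631 and 963834 in WT and at 977074, 889627 and 1154720 in hnRNPL-deficient libraries (log2 fold change 0.06, adjusted p = 0.856). It ranked 2 among the 55421 genes by mean normalized count. mt-Co2, which receives electrons from cytochrome c, was at 326394, 264536 and 287576 in WT and at 329454, 312196 and 436142 in hnRNPL-deficient libraries (log2 fold change 0.28, adjusted p = 0.326). mt-Co3 was the only mRNA with a lower mean in hnRNPL-deficient B cells. Its values were 414564, 264128 and 249531 in WT and 299414, 220453 and 277609 in hnRNPL-deficient libraries (log2 fold change -0.19, adjusted p = 0.608), and without WT 1 the log2 fold change turned to 0.04.

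**Figure D2:**
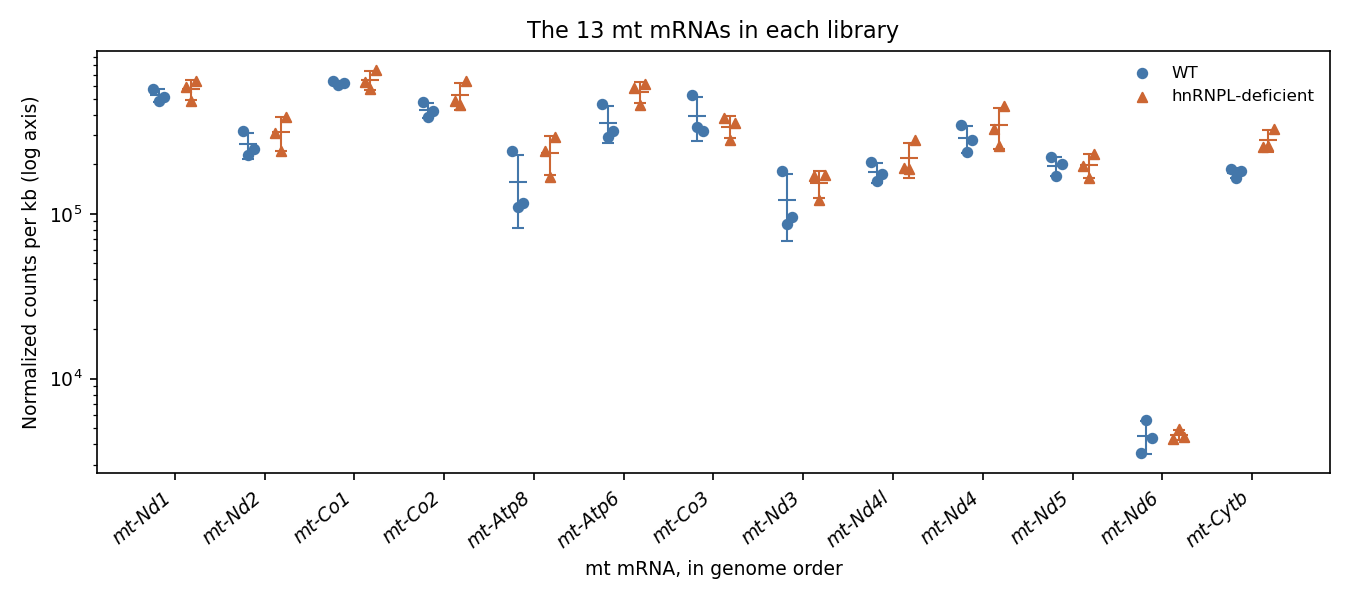
Normalized counts per kb of gene (log axis) for the 13 mt mRNAs in genome order, with 1 point per library, bars at the group mean and error bars of 1 SD (n = 3). The 3 hnRNPL-deficient points lie above the 3 WT points for mt-Cytb, and the groups overlap for the other 12 mRNAs.

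Over the 13 mRNAs the median log2 fold change was 0.24 and 12 had a higher mean in hnRNPL-deficient B cells, beside a median of -0.03 over all genes tested. The size of this median depended on single libraries. The median deviation of the 13 mRNAs from the WT mean, on the log2 scale, was 0.21, -0.19 and -0.03 in WT and 0.18, 0.06 and 0.58 in hnRNPL-deficient libraries. WT 1 was thus above 2 of the hnRNPL-deficient libraries, and without hnRNPL-deficient 3 the median log2 fold change was 0.07. Only mt-Cytb among the 13 had groups that did not overlap, whereas over all genes tested the hnRNPL-deficient libraries were all above WT for 17.7% and all below for 16.3%. By level per kb, mt-Co1 came first in both groups, at 622523 ± 16963 in WT and 651870 ± 87430 in hnRNPL-deficient libraries (SD, n = 3), followed by mt-Nd1. This order rests on the counts of the mt genes alone, and on the RNA of each that was carried through the poly(A) selection. Gm10925, a nuclear copy identical to nearly all of mt-Atp6, was higher than mt-Co1 by mean in both groups, at 630882 ± 195885 and 982585 ± 188762 per kb, so the place of mt-Atp6 depends on how reads shared with the copy were counted. mt-Co2, mt-Co3 and mt-Atp6 came next in WT, at 428122 ± 45706, 394653 ± 116530 and 358344 ± 90583, and these neighbours did not differ beyond their spread. mt-Cytb was at 177751 ± 12300 in WT, close to mt-Nd4l at 178843 ± 24829 and mt-Nd5 at 196525 ± 25891. In hnRNPL-deficient libraries it was at 279749 ± 42272, above mt-Nd5 at 197635 ± 33695.

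A share within the mt mRNA reads does not depend on the size factor of a library, although for mRNAs with nuclear copies it depends on how the shared reads were counted. Complex III, which is mt-Cytb alone, took 5.12%, 5.70% and 5.88% of the mt mRNA reads in WT and 6.97%, 8.35% and 7.63% in hnRNPL-deficient libraries. Complex V took 8.68%, 6.78% and 6.81% in WT and 10.7%, 9.77% and 9.65% in hnRNPL-deficient libraries. For both, the hnRNPL-deficient libraries were all above WT. Complex IV took 41.2%, 44.5% and 42.5% in WT and 38.7%, 40.3% and 37.9% in hnRNPL-deficient libraries, all below WT. Complex I took 45.0%, 43.0% and 44.8% in WT and 43.6%, 41.6% and 44.8% in hnRNPL-deficient libraries, and the groups overlapped. Among single mRNAs, mt-Atp6 and mt-Cytb had higher shares in every hnRNPL-deficient library and mt-Nd5 had lower ones (9.61%, 9.39% and 10.3% in WT and 8.58%, 8.53% and 8.61% in hnRNPL-deficient libraries). The other 10 mRNAs overlapped. By normalized counts, 17.7% of all genes tested had every hnRNPL-deficient library above WT and 16.3% had every one below. Nothing particular to the mt genes is therefore read from the number of mRNAs or complexes that were apart. With the nuclear copy Gm10925 in place of mt-Atp6, complex V was at 14.1%, 10.5% and 10.6% in WT and at 16.7%, 15.0% and 15.8% in hnRNPL-deficient libraries. Complexes III, IV and V lay on the same sides as before and complex I overlapped. With 3 mice against 3, the smallest two-sided p that an exact permutation test allows is 0.1, so these shares are given as values without a test. Shares sum to 100%, so a higher share of 1 mRNA lowers the others.

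**Figure D3:**
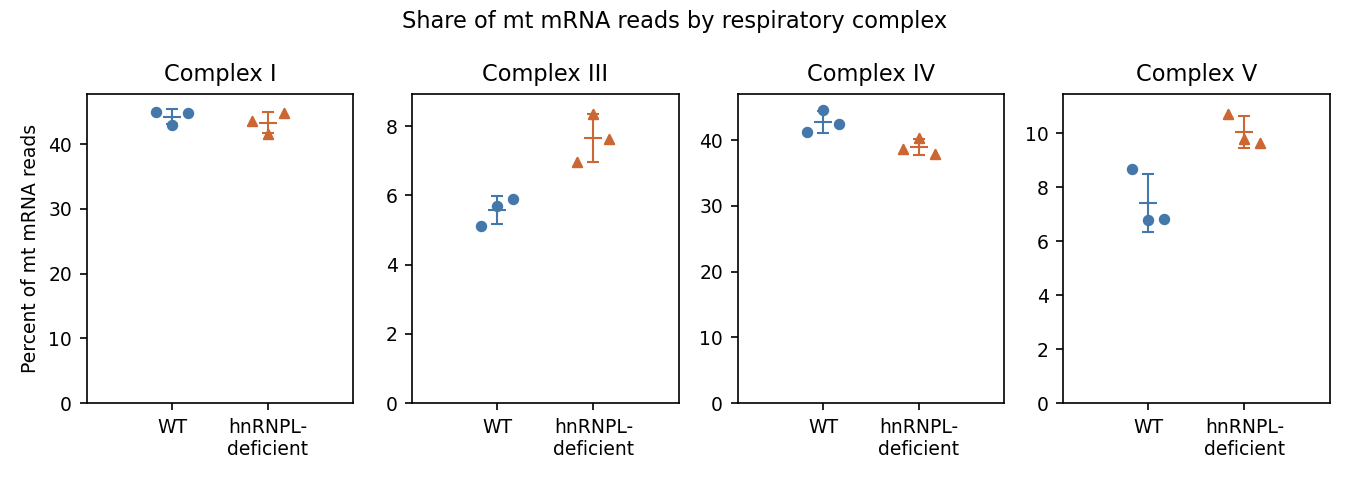
Percent of the mt mRNA reads on the subunits of complexes I, III, IV and V, with 1 point per library, bars at the group mean and error bars of 1 SD (n = 3); each vertical axis starts at 0. The groups are apart for complexes III and V (hnRNPL-deficient above) and IV (hnRNPL-deficient below) and overlap for complex I.

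Ratios between mRNAs from the same strand compare genes that leave the same precursor. Of the 66 pairs of forward-strand mt mRNAs, 23 had per-length ratios that did not overlap between the groups, and none of the 12 pairs with mt-Nd6 did. Over all pairs of the 17582 tested genes above 0 in every library, 33.5% had ratios that did not overlap, so the share among the mt mRNAs was near that of all genes and nothing particular to them is read from it. The groups were apart for 8 of the 12 pairs with mt-Cytb and 7 of the 12 with mt-Atp6. The forward strand holds 12 of the mRNAs, which makes 11 pairs of neighbours, of which 7 have a forward-strand tRNA between them and 4 do not. The groups were apart for 2 of the 7 and 2 of the 4, small numbers beside the same 33.5%, and the values of single junctions follow as a description.

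Among these neighbours, the mean ratios differed most for mt-Atp6 to mt-Co3 (hnRNPL-deficient over WT, 1.77) and mt-Nd5 to mt-Cytb (0.641). Neither junction has a forward-strand tRNA. The junction of mt-Co3 with mt-Nd3, which has a forward-strand tRNA, was close behind at 0.656. The ratio of mt-Atp6 to mt-Co3 was 0.874, 0.874 and 1.00 in WT and 1.52, 1.62 and 1.72 in hnRNPL-deficient libraries. This ratio was 1.77 times as high in hnRNPL-deficient B cells by the means, although the 2 genes abut in the sequence printed above. The ratio of mt-Nd5 to mt-Cytb was 1.18, 1.03 and 1.10 in WT and 0.772, 0.640 and 0.708 in hnRNPL-deficient libraries. It was above 1 in every WT library and below 1 in every hnRNPL-deficient library. Between these 2 genes the forward strand runs through the reverse complements of mt-Nd6 and mt-Te and then into mt-Cytb, whose first 100 bases (chrM:14145-14244, start codon in capitals) follow 5 bases after mt-Te.
mt-Cytb 5′ end: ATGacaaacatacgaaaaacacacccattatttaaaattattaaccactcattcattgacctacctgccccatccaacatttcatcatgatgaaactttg
The other 2 neighbours without a forward tRNA overlapped between groups. mt-Atp8 to mt-Atp6 was at 0.519, 0.373 and 0.368 in WT and 0.415, 0.367 and 0.477 in hnRNPL-deficient libraries, and mt-Nd4l to mt-Nd4 was 0.625 ± 0.032 in WT and 0.641 ± 0.075 in hnRNPL-deficient libraries (SD, n = 3). These are the gene pairs that stay together on a single mature mRNA. Among the neighbours with a forward tRNA between them, mt-Co3 to mt-Nd3 was 2.90, 3.89 and 3.32 in WT and 2.26, 2.32 and 2.06 in hnRNPL-deficient libraries, and mt-Co1 to mt-Co2 was 1.34, 1.56 and 1.48 in WT and 1.31, 1.26 and 1.17 in hnRNPL-deficient libraries. Both ratios were lower in every hnRNPL-deficient library.

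**Figure D4:**
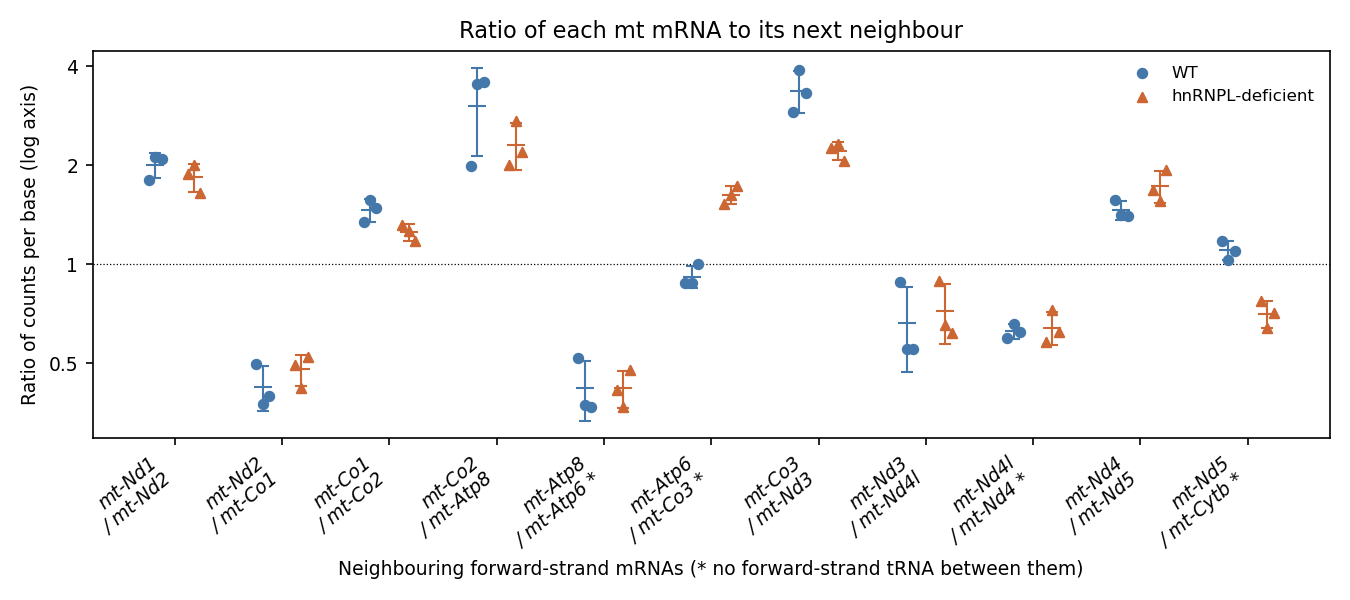
Ratio of normalized counts per base for each forward-strand mt mRNA over its next neighbour (log axis), in genome order, with 1 point per library, bars at the group mean and error bars of 1 SD (n = 3); an asterisk marks neighbours with no forward-strand tRNA between them. mt-Atp6 over mt-Co3 is higher, and mt-Nd5 over mt-Cytb lower, in all 3 hnRNPL-deficient libraries, and 2 further pairs are apart (mt-Co1 over mt-Co2 and mt-Co3 over mt-Nd3).

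Parts of the mt genome also exist as copies in the nuclear genome, and for many of the mt mRNAs a read could come from either place by its sequence. The fraction of all 100-base windows (the length of a read) that was also present in an annotated nuclear transcript was 99.9% for mt-Co3, 99.5% for mt-Co2 and mt-Atp6, 98.5% for mt-Nd4l, 97.6% for mt-Nd3, 60.8% for mt-Nd4, 30.8% for mt-Co1 and 3.19% for mt-Nd2. It was 0 for mt-Cytb, mt-Nd1, mt-Nd5, mt-Nd6, mt-Atp8 and both rRNAs. The matches fell in 10 annotated unprocessed pseudogenes, 7 of them side by side at chr1:24611535-24616197 and 3 on chromosome 2. As an example of how little the copies differ, the first 100 bases of mt-Co3 (chrM:8607-8706, forward strand) are set beside those of its copy Gm28437 (chr1:24613872-24613971, reverse strand).
mt-Co3 5′ end: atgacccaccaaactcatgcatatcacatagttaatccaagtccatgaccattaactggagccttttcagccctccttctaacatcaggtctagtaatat
Gm28437 5′ end: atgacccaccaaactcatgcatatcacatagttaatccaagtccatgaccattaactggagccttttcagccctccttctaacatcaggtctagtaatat
Over the whole of Gm28437 there were 0 differences in 783 bases, and likewise 0 in the 678 bases of Gm10925 (the copy of mt-Atp6), the 681 of Gm28661 (mt-Co2), the 294 of Gm10222 (mt-Nd4l) and the 876 of Gm28439 (the first part of mt-Nd4).

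On chromosome 1, the counts on 4 copies matched those of the mt gene. Gm28437 was at 416482, 265355 and 250831 in WT and at 300789, 221399 and 279047 in hnRNPL-deficient libraries, within 1% of mt-Co3 in each. For the chromosome 1 copies of mt-Co2, mt-Co3, mt-Nd3 and mt-Nd4l, the ratio of copy to mt gene ran from 0.99874 to 1.0052 over 24 values (4 genes in 6 libraries). The values of these mt genes and of their copies are therefore not separate measurements. Gm10925 was above its mt gene, at 580126, 336649 and 366439 in WT and at 694324, 526487 and 777768 in hnRNPL-deficient libraries, which was 1.68 to 1.87 times the value of mt-Atp6. Unlike mt-Atp6, it has no annotated copy of mt-Atp8 overlapping it. Its log2 fold change of 0.66 (SE 0.244) was close to that of mt-Atp6, but its adjusted p by limma was 0.121 and its groups overlapped. The other copies had lower counts than their mt genes, in ratios not corrected for length. Gm29216, which covers the last 492 of the 1545 bases of mt-Co1, was at 0.186 to 0.200 times mt-Co1. Gm28439, which covers the first 876 of the 1378 bases of mt-Nd4, was at 0.626 to 0.663 times mt-Nd4. Per base, Gm28439 was thus close to mt-Nd4, and the values of these 2 genes are not separate measurements either. The 3 copies on chromosome 2 differ more in sequence (17 to 37 differences each), and were lower still. Gm13340 was at 0.0451 to 0.0759 times mt-Co1, Gm13341 at 0.0394 to 0.0622 times mt-Co2 and Gm13339 at 0.00408 to 0.00966 times mt-Nd2. With Gm10925 and Gm28437 in place of mt-Atp6 and mt-Co3, the per-length ratio was 1.61, 1.47 and 1.69 in WT and 2.67, 2.75 and 3.22 in hnRNPL-deficient libraries, so the groups stayed apart although the level of the ratio was higher. How reads with several places, or reads over 2 genes, were counted is not given in the sources used here.

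**Figure D5:**
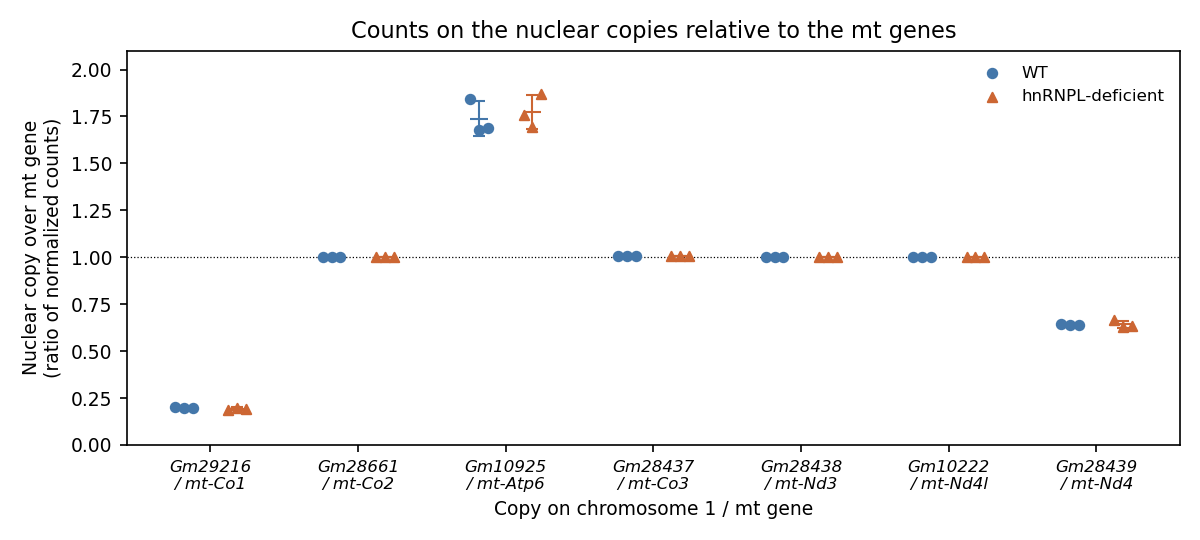
Normalized counts on the 7 copies on chromosome 1 divided by those of the matching mt gene (vertical axis from 0), with 1 point per library, bars at the group mean and error bars of 1 SD (n = 3). The copies of mt-Co2, mt-Co3, mt-Nd3 and mt-Nd4l sit at 1 in all 6 libraries, and Gm10925 sits between 1.68 and 1.87. The copies that cover only part of mt-Co1 and mt-Nd4 sit lower, in ratios that are not corrected for length.

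Within the 5 mt mRNAs that shared no window with a nuclear transcript, mt-Cytb made up 17.6%, 19.1% and 19.1% of the reads in WT and 23.0%, 26.9% and 25.5% in hnRNPL-deficient libraries. mt-Nd5 made up 33.1%, 31.4% and 33.4% in WT and 28.3%, 27.5% and 28.8% in hnRNPL-deficient libraries, and mt-Nd1 45.1%, 46.9% and 45.2% against 44.6%, 42.3% and 41.5%. In these mRNAs without such copies, the share of mt-Cytb was above WT in every hnRNPL-deficient library. The shares of mt-Nd5 and mt-Nd1 were below WT in every hnRNPL-deficient library. Beside this, 17.7% of all genes tested were above WT in every hnRNPL-deficient library by normalized counts and 16.3% were below. The number of mRNAs apart is not read as a result. Because the shares have a common total, a higher share of mt-Cytb lowers the others. By normalized counts, the means of mt-Nd5 hardly differed between the groups (log2 fold change 0.00, SE 0.177).

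Both mt rRNAs had lower means in hnRNPL-deficient B cells and neither passed the test. mt-Rnr1, the rRNA of the small mitoribosomal subunit, was at 7535, 10234 and 2993 in WT and at 5932, 5049 and 3248 in hnRNPL-deficient libraries (log2 fold change -0.42, SE 0.414, adjusted p = 0.554). mt-Rnr2, that of the large subunit, was at 16208, 19526 and 7879 in WT and at 13892, 12658 and 9068 in hnRNPL-deficient libraries (log2 fold change -0.22, adjusted p = 0.693). For both, WT 3 was the lowest library of all and hnRNPL-deficient 3 the next lowest. Without WT 3 the log2 fold change of mt-Rnr1 was -0.93 with an adjusted p of 0.0936, and without WT 2 it was -0.05. The rRNAs took 0.563%, 0.896% and 0.306% of mt reads in WT and 0.475%, 0.498% and 0.249% in hnRNPL-deficient libraries. In libraries made from poly(A) RNA, these counts measure the rRNA that was carried through the selection.

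Of the 22 tRNA genes, 14 were tested and none passed, with 10 of the 14 lower in mean and a median log2 fold change of -0.19. The 8 that were not tested (mt-Tf, mt-Ta, mt-Tc, mt-Ty, mt-Tr, mt-Th, mt-Ts2 and mt-Tl2) had means between 0.272 and 5.08. A tRNA gene is 59 to 75 bases long, shorter than a 100-base read. The highest were mt-Tw (tRNA for tryptophan), at 1405, 1231 and 1057 in WT and 1296, 949 and 1140 in hnRNPL-deficient libraries, and mt-Tm (methionine), at 1018, 944 and 992 in WT and 1061, 511 and 1062 in hnRNPL-deficient libraries. Neither differed between the groups beyond the spread, with adjusted p of 0.637 and 0.590. As a share of mt reads, the 22 tRNAs took 0.0914%, 0.0972% and 0.0884% in WT and 0.0815%, 0.0658% and 0.0703% in hnRNPL-deficient libraries, all below WT.

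The largest difference among the tRNAs tested was that of mt-Te, the tRNA for glutamic acid, which lies on the reverse strand at chrM:14071-14139, between mt-Nd6 and the start of mt-Cytb.
mt-Te: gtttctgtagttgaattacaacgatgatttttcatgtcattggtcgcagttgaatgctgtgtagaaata
It was at 80.1, 41.5 and 61.2 in WT and at 30.7, 23.2 and 38.4 in hnRNPL-deficient libraries, so that every hnRNPL-deficient library was below WT. The log2 fold change was -0.94 (SE 0.342) with an adjusted p of 0.117, which missed the threshold, and the counts behind it were 28 to 80 reads in the 5 libraries whose reads could be recovered. mt-Tq (glutamine) was also apart between the groups, at 4.64, 11.2 and 9.94 in WT and 11.7, 15.1 and 12.3 in hnRNPL-deficient libraries, and its adjusted p was 0.400. Among the 14 tRNAs tested, 1 thus had all hnRNPL-deficient libraries above WT and 1 had all below, beside 17.7% and 16.3% of all genes tested. mt-Tc (cysteine), too low to be tested, was below WT in all hnRNPL-deficient libraries.

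Nuclear genes that act on mt RNA were examined for comparison. Among 37 genes tested for mt RNA processing, modification and stability, 5 were lower and 0 higher in hnRNPL-deficient B cells at an adjusted p under 0.1 (limma), beside 7.97% lower and 10% higher over all genes tested. At an unadjusted p under 0.05, 7 were lower and 0 higher, and both edgeR and DESeq2 called 4 lower and 0 higher. The median log2 fold change of this list was -0.10, against -0.03 over all genes tested, and the members past the threshold are given as values, with nothing particular to the list read from their number. Lrpprc, whose product binds and stabilizes mt mRNAs and keeps their tails, was at 10192, 10959 and 9867 in WT and at 7322, 7132 and 6238 in hnRNPL-deficient libraries. Its groups did not overlap, and its log2 fold change was -0.59 (SE 0.0998, adjusted p = 0.00880). Its partner Slirp was at 1078, 1207 and 1065 in WT and at 884, 867 and 672 in hnRNPL-deficient libraries (log2 fold change -0.48, adjusted p = 0.0667). Prorp, the nuclease of mt RNase P that cuts at the 5′ ends of tRNAs, was at 1439, 1255 and 1266 in WT and at 971, 988 and 1032 in hnRNPL-deficient libraries (log2 fold change -0.40, adjusted p = 0.0523). The remaining members past the threshold were Supv3l1, the helicase of the mt RNA degradation complex (log2 fold change -0.32), and Fastkd3, of the FASTK family of mt RNA regulators (log2 fold change -0.43). Fastkd5, named here after its values were seen because its product is known to act at mt mRNA junctions that lack a tRNA, was at 509, 431 and 404 in WT and at 387, 335 and 299 in hnRNPL-deficient libraries (log2 fold change -0.40, adjusted p = 0.165). Any part of Fastkd5 in the ratios between mt mRNAs was not tested.

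Of the 10 genes tested for mtDNA maintenance and nucleotide supply, 1 was higher and 1 lower, near the 10% and 7.97% of all genes tested. edgeR called 1 in each direction, and DESeq2 1 higher and 2 lower. Tk2, the mitochondrial thymidine kinase, was at 345, 430 and 395 in WT and at 716, 783 and 648 in hnRNPL-deficient libraries (log2 fold change 0.88, SE 0.148, adjusted p = 0.00840), and Dguok, the deoxyguanosine kinase of the same salvage pathway, was at 790, 976 and 938 in WT and at 641, 716 and 566 in hnRNPL-deficient libraries (log2 fold change -0.49, adjusted p = 0.0629). The groups did not overlap for either kinase. Of the 10 genes for mt transcription, none passed with limma, or with edgeR or DESeq2 on 5 libraries, and 1 was lower at an unadjusted p under 0.05 (limma). The most abundant of them, the transcription factor gene Tfb2m, was at 2429, 2120 and 2144 in WT and at 1841, 1794 and 1833 in hnRNPL-deficient libraries (log2 fold change -0.29, adjusted p = 0.106). Tfam is named because the study's own DESeq2 comparison reports it as significantly reduced. It was at 2343.1, 2008.5 and 1709.2 in WT and at 1749.0, 1602.3 and 1514.6 in hnRNPL-deficient libraries (log2 fold change -0.31, adjusted p = 0.185 by limma).

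The nuclear-encoded subunits of the same complexes were examined gene by gene, and no share by complex was computed for them. Of 36 complex I genes tested, 1 was higher (Ndufv3, log2 fold change 0.38, adjusted p = 0.0558) and 1 lower (Ndufa12, -0.36, adjusted p = 0.0940) by limma, shares below the 10% and 7.97% of all genes tested, and edgeR and DESeq2 called 0 in either direction. By mean, 20 of the 36 were higher. Of the 9 complex III, 11 complex IV and 17 complex V genes, none passed with limma, edgeR or DESeq2, and at an unadjusted p under 0.05 there were 0, 0 and 1. For complex III, 8 of the 9 had a lower mean, with a median log2 fold change of -0.11, and for complex IV 6 of the 11 (median -0.09). All 17 complex V genes had a lower mean, with a median log2 fold change of -0.19, whereas both mt-encoded members had a higher one. Over all genes tested, 9304 of 17640 had a lower mean and the median log2 fold change was -0.03. With none of the 17 called, nothing particular to complex V is read from these directions. Atp5b, the catalytic beta subunit of ATP synthase and the most abundant of the 17, was at 37359, 38489 and 35137 in WT and at 34211, 34906 and 27976 in hnRNPL-deficient libraries (log2 fold change -0.20, adjusted p = 0.305). Uqcrc2 for complex III (log2 fold change -0.06) and Cox8a for complex IV (0.02) had overlapping groups.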

How the data were processed

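Poly(A) RNA of 6 libraries was sequenced as 100-base paired-end reads. Per the labels and the study's methods, reads were trimmed with fastp 0.23.1, aligned with STAR 2.7.9a to mm10 and counted by strand with featureCounts, using GENCODE vM23. The deposited values are normalized counts (signal: gene counts divided by DESeq2 1.38.2 size factors by the authors). Columns of the authors' own comparison (fold changes and p-values) were not used. The treatment of multi-mapped reads and of reads over more than 1 gene is not given in the sources used here.

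Values were whole multiples of 1 read's worth in 100% of cases (tolerance 0.01), which gave the depth of each library. For hnRNPL-deficient 2 that step is so close to 1 that its column was not read as recovered reads, and count tests (edgeR 4.0.16, DESeq2 1.42.0) used the other 5 libraries. limma 3.58.1 with a mean-variance trend was fitted on log2(value + 1) for the 17640 genes whose mean reached 10, with Benjamini-Hochberg adjustment over all of them; a call was an adjusted p under 0.1, and the study's thresholds add 1.5-fold. A fold change on this scale understates that of low genes. In data simulated for this comparison, limma recovered 195 of 200 changed genes among 17640 (14 false calls), edgeR 194 (17) and DESeq2 187 (23). Recovery of differences with the size and spread of those in the mt genes was not tested.

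Gene positions and transcript sequences came from GENCODE vM21 on the same assembly, in which all 37 mt genes were found by ID; copies were aligned with edlib. Named genes were all mt genes, members of the nuclear lists past an adjusted p of 0.1 (at most 5 a list) or else the most abundant, Hnrnpl and the nuclear copies. The members and gene lists were chosen with earlier results of these data known. Alternatives were the pseudocount, the filter, the scaling, the variance trend, a replicate block, the count tools and leaving out each library. Each library is 1 mouse, and p-values cover the spread between mice.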

Additional observations from a re-analysis of the deposited data

How the results depend on the processing

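With all 6 libraries, 2 mt genes passed an adjusted p under 0.1 and the same number passed the study's thresholds. Without the mean-variance trend each count was 1 (mt-Cytb), and with quantile normalization the study's thresholds left 1 (mt-Te). Scaling to equal totals over the 13 mt mRNAs, chosen after seeing the data, also left 1 under each rule (mt-Te); it moved the median log2 fold change of all genes to -0.21, gave 577 genes higher and 941 lower at the study's thresholds (against 1284 and 719), and put mt-Cytb at 0.46 with an adjusted p of 0.135. Scaling to equal totals over genes other than mt genes gave 2232 higher and 1160 lower at an adjusted p under 0.1, against 1766 and 1406. Leaving out 1 library gave 0 to 4 mt genes under each rule: mt-Cytb, mt-Atp6, mt-Atp8 and mt-Nd3 without WT 1, none without WT 2, mt-Rnr1 without WT 3, mt-Cytb without hnRNPL-deficient 1, and without hnRNPL-deficient 3 mt-Cytb by adjusted p alone. Those fits have fewer libraries by construction and called fewer genes in all, down to 919 higher and 669 lower without WT 3 and 1108 and 668 without WT 2. The labels number the replicates without saying whether equal numbers belong together. Correlations of deviations were 0.429, 0.32 and 0.0663 for equal numbers, the highest for each hnRNPL-deficient library. The margin was small for hnRNPL-deficient 2 (0.305 with WT 3) and 3 (0.0501 with WT 1), so pairing is left undecided. With the replicate block, 5 mt genes passed the adjusted p (mt-Cytb, mt-Atp6, mt-Atp8, mt-Nd3 and mt-Te) and 4 the study's thresholds (all but mt-Nd3). In that fit, 2893 genes were higher and 2918 lower in all. Log2 fold changes of genes not called changed sign as follows: mt-Tk to 0.029 and 0.047 with equal totals over all genes and over genes other than mt genes; mt-Nd1 to -0.080, mt-Nd2 to -0.0076, mt-Nd5 to -0.13 and mt-Tp to -0.067 with quantile normalization; mt-Tm to 0.10, mt-Tg to 0.33 and mt-Nd6 to -0.054 with edgeR, and 0.12, 0.34 and -0.038 with DESeq2; and mt-Nd1 to -0.072, mt-Co1 to -0.13, mt-Ts1 to -0.10, mt-Nd5 to -0.19, mt-Nd6 to -0.15 and mt-Tp to -0.11 with equal mt mRNA totals. Over the leave-outs the ranges with a change of sign were -0.61 to 0.048 for mt-Rnr2, -0.17 to 0.66 for mt-Tl1, -0.42 to 0.11 for mt-Tm, -0.77 to 0.31 for mt-Tn, -0.045 to 0.14 for mt-Co1, -0.12 to 0.24 for mt-Ts1, -0.21 to 0.34 for mt-Tk, -0.33 to 0.038 for mt-Co3, -0.56 to 0.40 for mt-Tg, -0.12 to 0.13 for mt-Nd5, -0.12 to 0.21 for mt-Nd6 and -0.054 to 0.17 for mt-Tp. The cause of these changes was not tested. The shares of mt reads do not depend on scaling. The groups did not overlap for complexes III, IV and V, so leaving out a library could not change their direction. The median over the 13 mRNAs was above 0 in each alternative, from 0.05 (equal mt mRNA totals) to 0.40 (DESeq2). Low counts limit the tRNAs, which a 100-base read outspans.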
